A study of Mus musculus with 14 samples.

Results

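The genes described here are 9 genes of bile acid and organic anion transport, 8 carriers or carrier subunits and a binding protein, Slc10a1, Slco1a1, Slco1a4, Slco1b2, Slco2b1, Slc22a7, Slc51a, Slc51b and Fabp6, read by gene symbol from gene-level RNA sequencing of mouse liver tumours. All 9 have a row among the 16821 genes of a first table of 10 tumours, and 7 have one among the 16095 genes of a second table of 4 libraries; Slco1a1 and Slc51a were not analysed here in the second. Every tumour is a hepatocellular carcinoma driven by MYC, the controls included, and differs by the guide RNA that was delivered with Cas9. The groups are 3 tumours with a guide to Cul3 (sgCul3), 3 with a guide to Keap1 (sgKeap1) and 4 with a guide to GFP as control (sgGFP), all in the first table, and 2 tumours with a guide to the ETGE motif of NRF2 (sgNrf2 A and B) beside 2 control libraries (A and B), in the second table. By their labels, controls A and B repeat sgGFP tumours 2 and 4, so the tables do not give independent controls. KEAP1 binds NRF2 at the ETGE motif and CUL3 is the ligase scaffold that KEAP1 recruits, so each of the 3 guides is meant to activate NRF2. The labels give no strain, age or sex of the mice, and do not say how MYC was expressed or whether tumours of 1 group came from separate mice, so p-values measure the spread between these samples. The samples are labelled as hepatocytes, but RNA came from bulk tumours, in which fewer cells of a type and less RNA per cell cannot be told apart.

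Hepatocytes take bile acids from portal blood mainly through the sodium-coupled carrier NTCP, encoded by Slc10a1, and through organic anion transporting polypeptides, encoded by the Slco genes, which also carry hormones, bilirubin and drugs. Bile acids that accumulate in a cell bind the nuclear receptor FXR (Nr1h4), which in liver raises the repressor SHP (Nr0b2) and the canalicular export pump (Abcb11), and in ileum also raises the cytosolic bile acid binding protein (Fabp6), the basolateral exporter made of OSTα and OSTβ (Slc51a and Slc51b), and the hormone FGF15. Fabp6 and Fgf15 are known for their expression in ileum rather than in healthy adult liver. Inverted repeats of the half-site of nuclear receptors, spaced by 1 base, are the classic binding site of FXR.

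The results turn on Fabp6 and Slc51b, which were lower with sgNrf2, and on Slco1b2, which per kilobase of exon had the highest mean of the Slco members in sgGFP. The 250 bases before their start sites are shown for that reason, 5′ to 3′ on the gene's strand, from RefSeq on GRCm38.p6. They lie at chr11:43601563-43601812 (minus strand) for Fabp6, chr9:65422774-65423023 (minus strand) for Slc51b and chr6:141629268-141629517 (plus strand) for Slco1b2. In Fabp6 and Slc51b, capitals mark an inverted repeat made of GGTNA, any 1 base and TNACC, which leaves positions open. In Slco1b2 they mark GTTAATNAT, the first part of the site of the hepatocyte factor HNF1.
Fabp6: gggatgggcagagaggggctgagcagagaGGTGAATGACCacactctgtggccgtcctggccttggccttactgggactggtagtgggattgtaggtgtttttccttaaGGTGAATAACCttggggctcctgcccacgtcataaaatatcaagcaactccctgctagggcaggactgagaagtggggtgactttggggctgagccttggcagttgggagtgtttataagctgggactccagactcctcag
Slc51b: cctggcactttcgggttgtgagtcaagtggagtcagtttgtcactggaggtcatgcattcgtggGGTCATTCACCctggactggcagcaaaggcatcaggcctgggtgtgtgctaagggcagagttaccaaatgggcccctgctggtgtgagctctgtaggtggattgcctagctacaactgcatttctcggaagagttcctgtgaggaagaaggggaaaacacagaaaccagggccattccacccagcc
Slco1b2: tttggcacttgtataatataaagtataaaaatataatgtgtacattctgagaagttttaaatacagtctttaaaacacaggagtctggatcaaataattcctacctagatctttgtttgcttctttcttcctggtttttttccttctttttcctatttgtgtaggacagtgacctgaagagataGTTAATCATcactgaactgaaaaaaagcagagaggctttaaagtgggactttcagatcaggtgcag
Of the 9 members, 8 matched a RefSeq window, and the whole window of 250 bases before and 50 after the start site was searched on both strands. The inverted repeat reads the same on both strands, and its letters were chosen after the sequences had been seen. It occurred at -221 and -141 in Fabp6 and at -186 in Slc51b, counted from the start site, in no other member, and in 86 of 32851 windows of all genes (0.262%). The HNF1 letters were at -66 in Slco1b2 and in 0.801% of all windows. The unloosened consensus sites of FXR, HNF1 and HNF4, searched in the same windows, were in no member and in 0.00913%, 0.00913% and 0.0396% of all windows. The core of the antioxidant response element that NRF2 binds, TGACNNNGC, was in no member's window and in 12.4% of all windows. A match describes letters, not a site in use, and a window without one says nothing of the factor.

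The libraries of the first table held 6333025 to 12008223 reads assigned to genes, and those of the second 17819333 to 20848578. Values are the authors' scaled reads, with an added 1 removed in the first table; the 2 tables were scaled separately and are compared by fold change only. The sgKeap1 tumours had 387 ± 90.2 scaled reads of Keap1 against 652 ± 71.8 in sgGFP (SD), and the sgCul3 tumours 422 ± 256 of Cul3 against 1189 ± 184 in sgGFP; transcripts of Nfe2l2, which encodes NRF2, were at 1551 ± 91.6 in sgNrf2 and 1621 ± 316 in control, where an edit need not lower the RNA. Of 10 known NRF2 target genes, 8 were called higher in sgCul3, 9 in sgKeap1 and 8 in sgNrf2. One library, sgKeap1 tumour 2, stands apart: its 10 most abundant genes took 24.5% of its reads and Alb alone 7.94%, its 12 hepatocyte markers summed to 1256730 scaled reads against 124376 to 380466 in the other 9, and it was the highest library for 10 of 12 genes of pericentral hepatocytes and for 5 of the 9 members. Results that it carries are given with and without it.

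Over the members, few passed the test, and those that did were lower in the guide tumours. Calls are at an adjusted p under 0.05 (limma, Benjamini-Hochberg over every gene whose deposited values average 10 or more), and fold changes are on the log2 scale of the deposited value plus 1. In sgCul3 against sgGFP none of the 8 members tested was called, where 2.20% of 13045 genes were (287 genes, 1.35% higher and 0.851% lower). Unadjusted, 1 member (Fabp6) and 2241 genes had a p under 0.05, and neither edgeR nor DESeq2 called a member. Fabp6 was also the 1 member whose groups did not overlap, being lower (background 7.54% lower, 8.71% higher, 16.2% either way). In sgKeap1 against sgGFP 1 of 8 was called lower, Fabp6, and 0 higher, against a background of 3.37% lower, 4.45% higher and 7.82% either way. Fabp6 was again the 1 member without overlap (background 12.6% lower, 13.1% higher, 25.8% either way). In sgNrf2 against control 2 of 7 were called lower, Fabp6 and Slc51b, and 0 higher, against 2.51% lower, 1.90% higher and 4.41% either way of 13989 genes. The groups did not overlap for any of the 7 members, 5 lower and 2 higher, which with 2 against 2 libraries holds for 64.0% of all genes (30.7% lower, 33.3% higher). Between sgKeap1 and sgCul3, 0 of 8 members were called, by edgeR or DESeq2 either, and 1 (Fabp6) had an unadjusted p under 0.05; the background was 0.0307% higher, 0.0307% lower and 0.0613% either way. Fabp6 did not overlap there, being lower in sgKeap1 (background 8.24% lower, 7.52% higher, 15.8% either way). The comparisons of sgCul3 and of sgKeap1 share the 4 sgGFP tumours. The members' median log2 fold change was -0.39 in sgCul3, 0.71 in sgKeap1 and -1.67 in sgNrf2, where that of all genes was 0.011, -0.0069 and 0.040. Without sgKeap1 tumour 2 the median in sgKeap1 was 0.17, over the 7 members then tested.

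**Figure D1:**
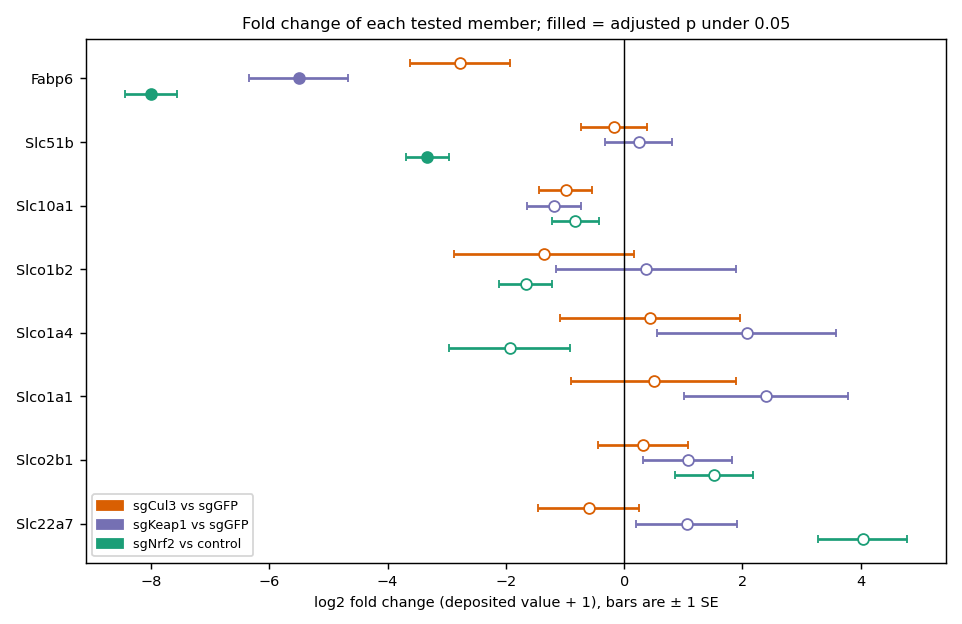
Log2 fold change of the 8 tested members in sgCul3 and sgKeap1 against sgGFP and in sgNrf2 against control (x axis, log2 scale of the deposited value plus 1; bars, 1 SE; filled points, adjusted p under 0.05). Fabp6 is on the left in all 3 comparisons, from -2.78 in sgCul3 to -8.00 in sgNrf2, and Slc22a7 is furthest right in sgNrf2 at 4.03, unfilled.

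Slc10a1 encodes the sodium-coupled bile acid carrier of the sinusoidal membrane (ENSMUSG00000021135, chromosome 12, positions 80953183 to 80968705, minus strand, GRCm38). Tumours 1 to 3 of sgCul3 had 801, 1425 and 959 scaled reads of it and those of sgKeap1 had 476, 1632 and 941, against 1243, 1484, 3864 and 2486 in sgGFP tumours 1 to 4. The highest guide tumour of either group thus reached into the sgGFP range, and the groups overlap. Its log2 fold change was -0.99 ± 0.46 in sgCul3 (adjusted p = 0.296, limma) and -1.19 ± 0.46 in sgKeap1 (adjusted p = 0.118, limma), and neither was called. In the second table it had 2219 and 3273 scaled reads in sgNrf2 A and B, against 3399 and 6720 in controls A and B, a log2 fold change of -0.83 ± 0.40 (adjusted p = 0.228, limma). Both sgNrf2 libraries lay below both controls, with little room between the closest pair. No alternative changed the direction or the call in these 3 comparisons. Slc10a1 was unlike the organic anion carriers in that sgKeap1 tumour 2, at 1632, was within the range of the other 9 tumours.

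The organic anion transporting polypeptides Slco1b2, Slco1a4 and Slco1a1 are neighbours on chromosome 6 (GRCm38; 141629518 to 141686646 on the plus strand, 141805440 to 141856199 and 141907282 to 141946962 on the minus strand; ENSMUSG00000030236, ENSMUSG00000030237 and ENSMUSG00000041698). All 3 encode sinusoidal uptake carriers of hepatocytes, and in healthy mouse liver Slco1a1 is known to be more abundant in males and Slco1a4 in females. In these tumours none was called in any comparison by limma, and their values turned on single tumours. Slco1b2 had 9.67, 1467 and 299 scaled reads in sgCul3 tumours and 118, 5410 and 286 in sgKeap1 tumours, against 202, 441, 765 and 557 in sgGFP tumours. Each guide group held 1 tumour, number 2, above every sgGFP tumour and at least 1 below them all. The log2 fold change was -1.36 ± 1.52 in sgCul3 (adjusted p = 0.699, limma) and 0.36 ± 1.52 in sgKeap1 (adjusted p = 0.896, limma).

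Slco1a4 had 1.38, 175 and 60.2 scaled reads in sgCul3 tumours and 27.8, 1107 and 31.7 in sgKeap1 tumours, against 5.40, 10.7, 70.9 and 51.9 in sgGFP tumours. Again tumour number 2 of each guide group was above all sgGFP tumours and the rest were within or below their range. Slco1a1 had 0, 7.09 and 3.13 scaled reads in sgCul3 tumours and 1.63, 385 and 1.44 in sgKeap1 tumours, against 0.675, 0.767, 1.77 and 1.79 in sgGFP tumours. Outside sgKeap1 tumour 2, which had 190 reads of it, no tumour had more than 8 reads, so Slco1a1 was near or below what this depth can count. With that tumour the sgKeap1 mean was 103 times that of sgGFP for Slco1a1, 11.2 times for Slco1a4 and 3.94 times for Slco1b2. Without it the ratios were 1.23, 0.857 and 0.410. edgeR called Slco1a1 higher in sgKeap1 (log2 fold change 6.59, adjusted p = 0.0449, edgeR), where limma gave 2.40 ± 1.39 (adjusted p = 0.271); without sgKeap1 tumour 2 the gene was below the filter. Slco1a1 and Slco1a4 share 1.635% and 1.608% of their 50-base words with each other or with Slco1a5, Slco1a6 and 2 predicted genes. A small part of their reads may thus lack a unique alignment. In the second table such reads stood in an entry of their own and were given to no gene, and the first table has no such entry.

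The summed level of 12 genes of pericentral hepatocytes was set beside these carriers. It was 2084, 20510 and 8039 scaled reads in sgCul3 tumours and 2998, 44980 and 2895 in sgKeap1 tumours, against 5808, 5226, 6919 and 5130 in sgGFP tumours. In both guide groups tumour 2 was the highest, as it was for Slco1b2, Slco1a4 and Slco1a1. This was not particular to pericentral genes. The sum of 12 periportal genes was 36131, 50596 and 32645 in sgCul3 tumours and 38844, 108338 and 58065 in sgKeap1 tumours, against 26488 to 104764 in sgGFP. That of the hepatocyte markers was 146443, 349054 and 124376 in sgCul3 tumours, and in sgKeap1 tumour 2 was again the highest. The pericentral cytochrome Cyp2e1 had 8387 scaled reads in sgCul3 tumour 2 and 5195 in sgKeap1 tumour 2, and the pericentral transaminase Oat had 3550 and 17244. The sum of 14 genes that are more abundant in female liver was 7048 in sgKeap1 tumour 2 and 403 to 3089 in the other 9. That of 12 genes more abundant in male liver was higher in every guide tumour than in any sgGFP tumour. It was 5638.5 to 10347 in sgCul3 and 4221 to 36422 in sgKeap1, where tumour 2 was the highest, against 1689 to 2552 in sgGFP. Of this list, Cyp7b1 was called higher in sgCul3, sgKeap1 and sgNrf2. Its log2 fold changes were 4.95, 5.82 and 7.51 (adjusted p = 0.000228, 6.33e-05 and 0.0167, limma). Gstp1 was called higher in sgCul3 at 1.95 and in sgNrf2 at 2.18 (adjusted p = 0.00738 and 0.0337, limma). The sgNrf2 call of Gstp1 was lost in 2 of 12 alternatives. The part of these genes in the sums was not tested. In the second table the male list was at 15815 and 16661 in sgNrf2, against 3498 and 4921 in control. The female list, with 13 genes there, was at 730 and 1121 in sgNrf2, against 2982 and 7348 in control. Of 5 listed sex chromosome genes, only Xist, of the X chromosome, had a row in either table, and every library had reads of it. Its scaled reads were 2856 to 5290 in sgCul3, 3087 to 5459 in sgKeap1 and 6235 to 11476 in sgGFP. In the second table they were 9423 to 10924 in sgNrf2 and 18199 to 25068 in control. The sex of the mice was not tested. The part of these other genes in the carriers' values was not tested. As a description over 10 tumours that share depth and scaling, Slco1a4 and Slco1b2 correlated at 0.886 on the log2 scale and at 0.821 without sgKeap1 tumour 2, and Slco1a1 with Slco1a4 at 0.850 and 0.913. Slco1b2 and Slc10a1 correlated at 0.560.

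**Figure D2:**
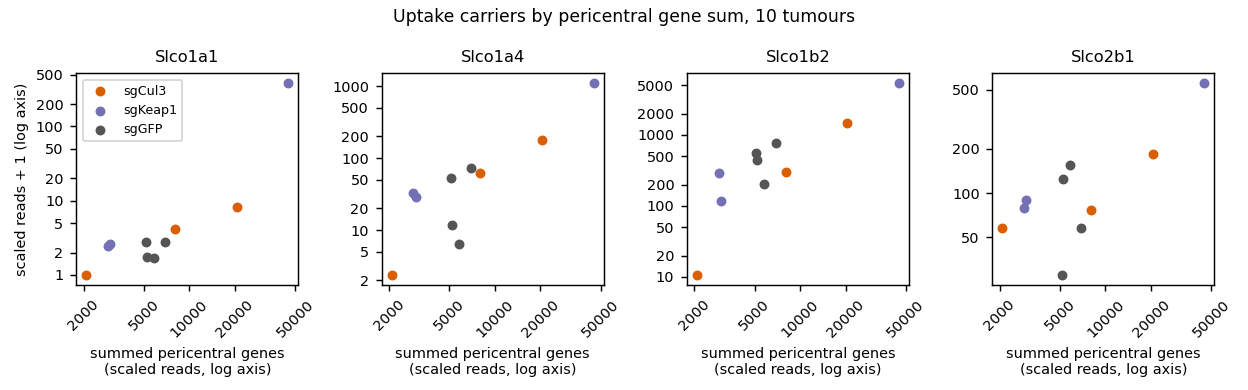
Scaled reads plus 1 of 4 organic anion transporting polypeptides (y axes, log) against the summed scaled reads of 12 pericentral genes (x axes, log) in 10 tumours, coloured by guide. The sgKeap1 point at the top right of each panel is tumour 2, with a pericentral sum of 44980 and 385 scaled reads of Slco1a1, and the sgCul3 point next to it in the x direction is tumour 2 with a sum of 20510.

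In the second table no library stood apart in this way, and the sum of the 9 pericentral genes with a row was 6070 to 6928 in sgNrf2 and 9661 to 11861 in control. Slco1b2 had 223 and 439 scaled reads in sgNrf2 A and B, against 746 and 1328 in controls A and B, a log2 fold change of -1.67 ± 0.45 that missed the threshold (adjusted p = 0.0937, limma). DESeq2 called it lower (adjusted p = 0.00706, DESeq2). Slco1a4 had 20.3 and 7.87 scaled reads in sgNrf2, against 20.5 and 128 in control (-1.94 ± 1.03, adjusted p = 0.263, limma), so sgNrf2 A and control A were nearly equal and control B set the difference.

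Slco2b1 (ENSMUSG00000030737, chromosome 7, 99657804 to 99711340, minus strand) encodes an organic anion carrier that is expressed in liver and in many other tissues. It had 56.6, 182 and 75.8 scaled reads in sgCul3 tumours and 88.3, 557 and 77.9 in sgKeap1 tumours, against 154, 123, 56.7 and 26.8 in sgGFP tumours. The groups overlap, and sgKeap1 tumour 2 again had the highest value. The log2 fold change was 0.32 ± 0.76 in sgCul3 (adjusted p = 0.873, limma) and 1.07 ± 0.76 in sgKeap1 (adjusted p = 0.363, limma); the ratio of sgKeap1 to sgGFP means was 2.68 with tumour 2 and 0.923 without it. With sgNrf2 it had 377 and 379 scaled reads, against 253 and 67.1 in controls A and B, a log2 fold change of 1.53 ± 0.66 (adjusted p = 0.195, limma). The spread lay in the controls, and without control A the gene was called higher (2.48, adjusted p = 0.0232, limma). The same spread was present in the first table, where Slco2b1 was at 13.3 RPM in sgGFP tumour 2 and 2.57 RPM in sgGFP tumour 4, and at 13.2 and 2.97 RPM in their repeats, controls A and B (RPM, reads over all reads assigned to genes). Of its exon bases, 7.91% overlap the predicted gene Gm15635 on the other strand, and the library kit named in the labels does not mark strand.

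Slc22a7 (ENSMUSG00000067144, chromosome 17, 46432183 to 46438457, minus strand) encodes OAT2, a carrier of organic anions and nucleobases at the sinusoidal membrane. It was the member with the largest positive fold change with sgNrf2, without passing the threshold: 279 and 907 scaled reads in sgNrf2 A and B, against 18.3 and 48.1 in controls A and B. The lower sgNrf2 library was well above the higher control, and the log2 fold change was 4.03 ± 0.75 (adjusted p = 0.0551, limma). It was called higher with all libraries scaled to equal totals (4.34, adjusted p = 0.0413, limma) and with DESeq2 (4.15, adjusted p = 4.89e-07, DESeq2). In the first table it was low in every tumour, with 2.76, 23.9 and 3.13 scaled reads in sgCul3 and 8.17, 64.9 and 27.4 in sgKeap1, against 3.37, 6.90, 32.8 and 15.2 in sgGFP. These are 2 to 37 reads a tumour, the groups overlap, and neither guide gave a call (-0.60 ± 0.85, adjusted p = 0.767, and 1.06 ± 0.85, adjusted p = 0.428, limma). The ratio of sgKeap1 to sgGFP means was 2.30 with sgKeap1 tumour 2 and 1.22 without it.

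**Figure D3:**
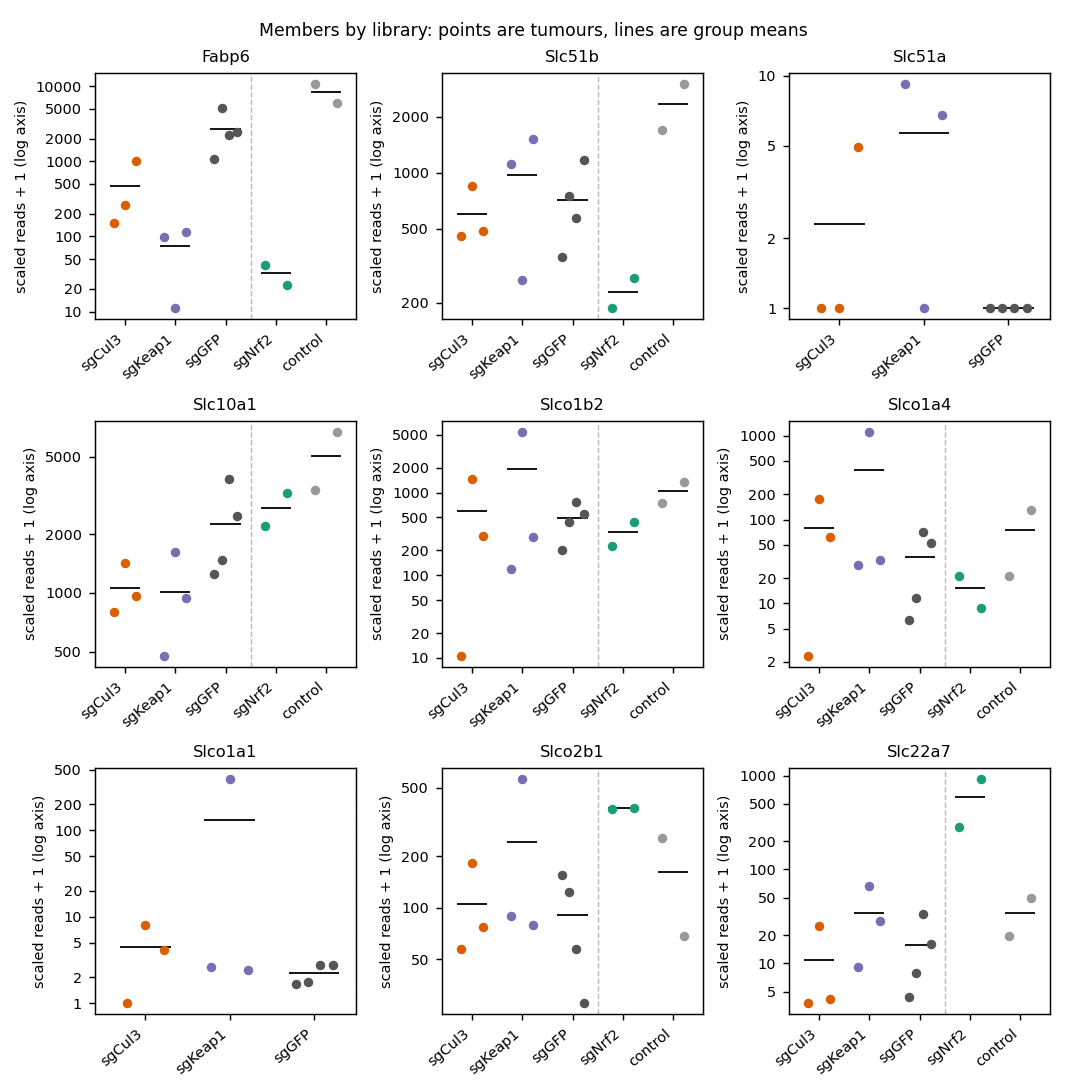
Scaled reads plus 1 (log axes) of the 9 members, 1 point a library, with a line at the group mean; the dashed line parts the first table (sgCul3, sgKeap1, sgGFP) from the second (sgNrf2, control), which was scaled separately. Fabp6 is lowest in sgKeap1 and sgNrf2, Slc51b in the sgNrf2 libraries is below control, and sgKeap1 tumour 2 is the high point of Slco1b2, Slco1a4, Slco1a1 and Slco2b1.

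Fabp6 encodes the ileal bile acid binding protein, which carries bile acids through the cytosol (ENSMUSG00000020405, chromosome 11, 43596049 to 43601540, minus strand). It fell in sgKeap1 and sgNrf2 tumours. It had 152, 262 and 1002 scaled reads in sgCul3 tumours and 98.1, 10.1 and 114 in sgKeap1 tumours, against 1087, 5110, 2246 and 2491 in sgGFP tumours. All 6 guide tumours were below all 4 sgGFP tumours, with sgCul3 tumour 3 just under the lowest of them. In sgKeap1 the log2 fold change was -5.51 ± 0.84 (adjusted p = 0.00366, limma), a mean 36.9 times lower than in sgGFP. The call held in each of 21 alternatives, with values of -6.08 to -4.46, and without sgKeap1 tumour 2, whose 5 reads were the fewest, it was -4.46 (adjusted p = 0.00937, limma). In sgCul3 it was -2.78 ± 0.84 (adjusted p = 0.123, limma), which missed the threshold except without sgKeap1 tumour 2, when the adjusted p was 0.0483 at the same -2.78 (limma).

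The difference between the ligase guides was tested directly for Fabp6, and sgKeap1 against sgCul3 gave -2.73 ± 0.90 (adjusted p = 0.42, limma), with the 3 sgKeap1 tumours below the 3 sgCul3 tumours. In the second table Fabp6 had 41.3 and 21.9 scaled reads in sgNrf2 A and B, against 10590 and 6017 in controls A and B. The means differed 263 times, and the log2 fold change was -8.00 ± 0.44 (adjusted p = 0.0167, limma), called in all 12 alternatives with values of -8.45 to -7.56. Controls A and B repeat sgGFP tumours 2 and 4, which were the 2 highest of the 4 sgGFP tumours for Fabp6. The fold is thus against the upper part of the sgGFP range. Fabp6 was the most abundant member in sgGFP per kilobase of exon, at 5707 ± 3546 scaled reads per kilobase. Slc10a1 followed at 1032 ± 542 and Slc51b at 1002 ± 490, which do not differ beyond their spread, then Slco1b2 at 99.7 ± 47.6, Slco2b1 at 15.1 ± 9.81, Slc22a7 at 6.93 ± 6.24, Slco1a4 at 5.41 ± 4.96 and Slco1a1 at 0.237 ± 0.116 (SD, n = 4), with Slc51a at 0; Slco2b1, Slc22a7 and Slco1a4 overlap in their spread. In the sgNrf2 libraries Fabp6 was at 65.9 ± 28.7 scaled reads per kilobase and Slc10a1 at 1249 ± 339 (SD, n = 2), where in control Fabp6 was at 17335 ± 6752 and Slc10a1 at 2301 ± 1068. The exon lengths include untranslated ends.

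Slc51b encodes OSTβ, the small subunit of the basolateral bile acid exporter (ENSMUSG00000053862, chromosome 9, 65412714 to 65422955, minus strand). It fell with sgNrf2, to 186 and 270 scaled reads in sgNrf2 A and B, against 1708 and 2989 in controls A and B. Both sgNrf2 libraries were far below both controls, and the log2 fold change was -3.33 ± 0.36 (adjusted p = 0.0337, limma), a mean 10.3 times lower. Here too the controls repeat the 2 sgGFP tumours with the highest values, numbers 2 and 4. The call rests on both sgNrf2 libraries: without sgNrf2 A the adjusted p was 0.0539 and without sgNrf2 B 0.0548 (limma), at -3.06 and -3.59. With the ligase guides no such difference was measured. Slc51b had 456, 849 and 486 scaled reads in sgCul3 tumours and 1116, 266 and 1521 in sgKeap1 tumours, against 354, 746, 570 and 1172 in sgGFP tumours. The groups overlap, sgKeap1 tumours 1 and 3 were at or above most sgGFP tumours, and tumour 2 was the lowest of all 10. The log2 fold changes were -0.18 ± 0.56 in sgCul3 (adjusted p = 0.908, limma) and 0.24 ± 0.56 in sgKeap1 (adjusted p = 0.801, limma); whether the sgNrf2 effect differs from these was not tested, since the tables were scaled separately and their controls are the same tumours. Of its exon bases, 12.8% overlap Rasl12 on the other strand.

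Slc51a encodes OSTα, the partner without which OSTβ forms no carrier (ENSMUSG00000035699, chromosome 16, 32474504 to 32487879, minus strand). It was below the filter and was not tested. It had 0, 0 and 5 reads in sgCul3 tumours and 10, 0 and 4 in sgKeap1 tumours, against 0 in each of the 4 sgGFP tumours, where 0 reads allow up to 3. All 5 reads of sgCul3 are thus in 1 tumour and 10 of the 14 of sgKeap1 in another, too few for a fold change. Of its exon bases 17.7% overlap Pcyt1a on the other strand, and which of these reads came from Slc51a was not tested. In the same sgGFP tumours Slc51b stood at 354 to 1172 scaled reads while its partner was not detectable at this depth.

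Markers of other cell types differed between the same groups, in both directions. Of 12 enterocyte markers, 6 have a row, of which the apolipoprotein Apoa4 and Fabp2 are also made in mouse liver; Cdx1, Cdx2, Slc15a1, Alpi, Sis and Mep1a were not analysed here. Their summed level was 25123 to 29332 in sgNrf2 and 45953 to 125509 in control, and 5517 to 17808 in sgCul3 and 9728 to 32361 in sgKeap1 against 17982 to 58136 in sgGFP, most of it Apoa4. The other enterocyte markers went both ways in sgNrf2 without a call. Fabp2 was lower in both libraries, with 877 and 1639 scaled reads against 2434 and 2554 in control, and Lct overlapped at 10 reads or fewer. Vil1, Krt20 and Slc6a19 were higher in both. Vil1 had 3535 and 894 scaled reads in sgNrf2, against 180 and 13.9 in control, Krt20 2437 and 1565 against 727 and 491, and Slc6a19 194 and 255 against 155 and 134. Villin (Vil1), the 1 called, was higher in sgKeap1 (4.15 ± 0.91, adjusted p = 0.0218, limma), a call lost without sgGFP tumour 3 (0.0647), sgKeap1 tumour 2 (0.0913) or sgKeap1 tumour 3 (0.0526). Neutrophil markers were called lower for 7 of 9 in sgKeap1 (sum 124 to 204, against 732 to 5003 in sgGFP) and for 3 of 9 in sgNrf2 (140 to 539, against 4985 to 10670 in control), and for 0 of 9 in sgCul3 (132 to 2713). Erythroid markers were called lower for 5 of 9 in sgKeap1 (sum 9831 to 16299) and 3 of 9 in sgCul3 (7389 to 18944), against 10333 to 19245 in sgGFP, and for 7 of 9 in sgNrf2 (9563 to 15294, against 30538 to 34241 in control). The uncalled Tfrc made up 7820 to 14449 of these sums in sgKeap1, 6070 to 8311 in sgCul3 and 5557 to 8433 in sgGFP. In sgNrf2 it made up 7710 to 14386, against 13894 to 16283 in control. Slc4a1, which was called lower, was at 2.45 to 8.11 in sgKeap1, against 214 to 432 in sgGFP. Of the enterocyte, neutrophil and erythroid lists, no gene with a row was at 0 in a whole guide group. Of Kupffer cell and macrophage markers, 2 of 7 were called lower in sgNrf2, Clec4f (-5.52, adjusted p = 0.0391, limma) and Marco (-5.58, adjusted p = 0.0357, limma), and the list sum was 3588 to 5490 in sgNrf2 and 1415 to 8239 in control; 0 of 8 were called in sgCul3 or sgKeap1. The endothelial marker Pecam1 (1.40, adjusted p = 0.0442) and the stellate cell marker Pdgfrb (2.49, adjusted p = 0.0338, limma) were called higher in sgNrf2. Uncalled genes of these lists went both ways. Lyve1 (18.6 and 7.87 scaled reads, against 181 and 98.7 in control), Vwf, Clec4g, Reln and Dcn were lower in both sgNrf2 libraries. Cdh5, Kdr, Tek, Col1a1, Col1a2, Col3a1 and Des were higher in both. Among macrophage markers, Adgre1 (388 and 406, against 166 and 51.9) and Csf1r (891 and 922, against 533 and 214) were higher in both without a call, and Vsig4 and Timd4 lower. In sgKeap1 2 of 8 cholangiocyte markers were called higher, Krt19 (3.77, adjusted p = 0.0481) and Spp1 (2.23, adjusted p = 0.0437, limma), and in sgCul3 Spp1 (2.61, adjusted p = 0.0484, limma). Endothelial markers called lower were Lyve1 and Vwf in sgCul3 (adjusted p = 0.0281 and 0.0493, limma) and Vwf in sgKeap1 (0.0434, limma). In sgCul3 the call of Lyve1 was lost in 6 of 21 alternatives and that of Vwf in 14 of 20. In sgKeap1 that of Vwf was lost in 9 of 20. Each of Clec4f, Marco, Pecam1, Pdgfrb, Krt19 and Spp1 lost its call without at least 1 library. The summed hepatocyte markers were 330750 to 411964 in sgNrf2 and 491981 to 821473 in control, with 1 of 12 called lower (Ass1). Their part in the fall of Fabp6 and Slc51b was not tested.

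Other genes of the bile acid circuit were set beside the members by lists of textbook genes. In sgNrf2 tumours, 2 of 31 regulators of bile acid transport were called lower and 0 higher, with a list median of 0.07 against 0.040 over all genes. The repressor Nr0b2 had 9.72 and 19.2 scaled reads in sgNrf2 A and B, against 693 and 1369 in controls A and B (-6.05 ± 0.53, adjusted p = 0.0237, limma). The hormone Fgf15 had 0 and 1 reads in sgNrf2, against 181 and 96 in control, a ratio of control to sgNrf2 of 384 (exact 95% interval for counting error 68.3 to 15204; adjusted p = 0.0291, limma, and 0.0546 where genes had to average 50). The receptor itself, Nr1h4, had 1561 and 1798 scaled reads in sgNrf2, against 1469 and 1725 in control (0.07 ± 0.20, adjusted p = 0.825, limma), so the libraries interleave. The bile salt export pump Abcb11 fell (-2.48 ± 0.41, adjusted p = 0.0472, limma), with 937 and 1671 scaled reads in sgNrf2 against 5221 and 9400 in control. Its call was lost without control B (adjusted p = 0.0676), sgNrf2 A (0.152) or sgNrf2 B (0.0775, limma), and with edgeR (0.0541). In the ligase guide tumours the same genes were not called: Nr0b2 gave -1.27 ± 0.44 in sgCul3 and -0.48 ± 0.44 in sgKeap1, Fgf15 -0.52 ± 0.94 and -1.49 ± 0.94, and Abcb11 -0.90 ± 0.49 and -0.27 ± 0.49 (adjusted p 0.173 to 0.819, limma). In sgKeap1 tumours 1 of 30 regulators was called higher and 1 lower (median -0.21), and in sgCul3 0 higher and 1 lower (median -0.09).

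**Figure D4:**
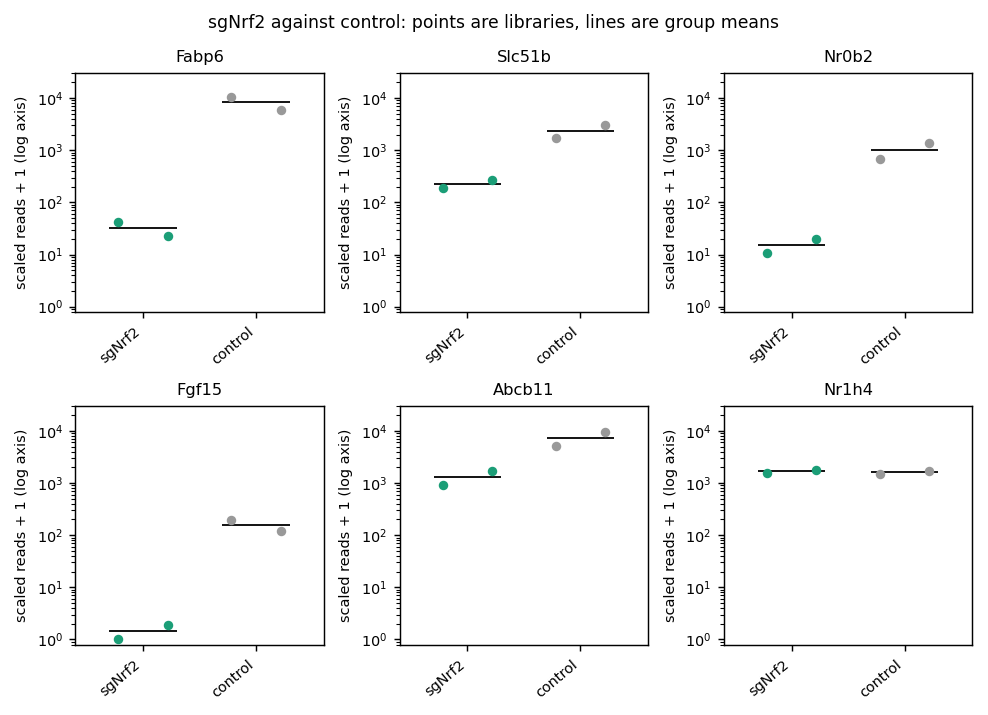
Scaled reads plus 1 (shared log axis) of Fabp6, Slc51b, the repressor Nr0b2, the hormone Fgf15, the export pump Abcb11 and the receptor Nr1h4 in sgNrf2 A and B and controls A and B, with a line at each group mean. The first 5 are lower in both sgNrf2 libraries, while Nr1h4 is at 1680 ± 167 in sgNrf2 and 1597 ± 181 in control (SD).

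Of the export and conjugation genes, 2 of 14 were called higher in sgCul3, 5 in sgKeap1 and 3 in sgNrf2, and 0, 0 and 1 lower; most did not pass the test, and the list medians were -0.21, 0.67 and 0.32. Abcc4, a basolateral exporter of conjugates and bile acids, had 1047, 459 and 648 scaled reads in sgCul3 tumours and 1826, 1907 and 1378 in sgKeap1 tumours, against 282, 61.4, 45.2 and 34.9 in sgGFP tumours. All guide tumours were above all sgGFP tumours, and it rose by 4.50 ± 0.58 on the log2 scale in sgKeap1 (adjusted p = 0.00155, limma) and 3.18 ± 0.58 in sgCul3 (adjusted p = 0.0224, limma), the second lost without sgCul3 tumour 1 (0.113) or sgGFP tumour 2 (0.0619), 3 (0.0688) or 4 (0.0527), with the 2 groups alone (0.0605) and with edgeR (0.0577). In sgNrf2 Abcc4 was at 8730 and 2997, against 121 and 73.4 in control (5.75 ± 0.57, adjusted p = 0.0295, limma; 0.0512 without control B). Its neighbour in function Abcc3 rose in sgKeap1 (3.40 ± 0.46, adjusted p = 0.00192, limma), with means of 1264 ± 352 in sgKeap1 and 122 ± 49.3 in sgGFP. The epoxide hydrolase Ephx1 rose in sgCul3, sgKeap1 and sgNrf2 by 2.17 ± 0.37, 2.43 ± 0.37 and 2.80 ± 0.19 (adjusted p = 0.0164, 0.00366 and 0.0224, limma), the first lost without sgCul3 tumour 1 (0.091) and the last without sgNrf2 B (0.0564).

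Related uptake carriers of the Slc10, Slco and Slc22 families were called higher for 0 of 20 in sgCul3, 3 in sgKeap1 and 3 in sgNrf2, with 0 called lower in each, and list medians of 0.41, 0.57 and 0.54; in sgCul3, 6 had an unadjusted p under 0.05. In sgKeap1 the 3 were Slc22a18 (1.77 ± 0.36, adjusted p = 0.0158, limma), Slc22a29 (2.36 ± 0.51, 0.0206) and Slc22a4, a carrier of ergothioneine (2.10 ± 0.46, 0.0228). Without sgKeap1 tumour 2 their adjusted p were 0.0616, 0.0871 and 0.097, and none was called; without sgKeap1 tumour 3 those of Slc22a29 and Slc22a4 were 0.0958 and 0.0728, and without sgGFP tumour 3 that of Slc22a4 was 0.0667 (limma). In sgNrf2 the prostaglandin carrier Slco2a1 had 2068 and 2581 scaled reads in sgNrf2, against 302 and 221 in control (3.15 ± 0.26, adjusted p = 0.0237, limma; 0.0745 without sgNrf2 B). Slc10a5, an orphan relative of Slc10a1, had 202 and 188, against 30.2 and 21.5 (2.88 ± 0.39, adjusted p = 0.0408, limma; 0.245 without sgNrf2 A and 0.203 without sgNrf2 B). The urate carrier Slc22a12 had 96 and 51 reads in sgNrf2 and 0 in both controls, at least 35.4-fold higher against 3 reads over the group (adjusted p = 0.0338, limma; 0.144 without sgNrf2 A and 0.0775 without sgNrf2 B). The uncalled Slco4c1 had 0 reads in every sgCul3 and sgKeap1 tumour, against 3, 4, 40 and 86 in sgGFP tumours 1 to 4. In sgNrf2 A and B it had 0 and 1 reads, against 0 and 141 in controls A and B. Of the other fatty acid binding proteins, 0 of 5 tested in the first table and 0 of 6 in the second were called by limma; at an unadjusted p under 0.05 there were 2 in sgCul3, 2 in sgKeap1 and 3 in sgNrf2. The nearest were Fabp4 in sgNrf2 (-0.93 ± 0.17, adjusted p = 0.0529, limma) and Fabp5 in sgKeap1 (-0.87 ± 0.27, adjusted p = 0.0716, limma), and Fabp1, the abundant form of liver, gave -1.18 ± 0.43 in sgNrf2 (adjusted p = 0.147, limma).

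The genes most like each member over the 10 tumours of the first table were found by Pearson's correlation of log2 values among 8811 genes averaging 100 or more, as a description. For Fabp6 they included Mms19 (0.959) and St5 (0.958), and for Slc51b they were Pdss1 (0.941), Impa2 (0.898) and Clybl (0.882). Slc10a1 was most like Ndrg2 (0.927), Ass1 (0.927) and Gpld1 (0.924). The carriers with a high sgKeap1 tumour 2 were most like other genes with a high value there, Slco1a1 like Cyp2c69 (0.986), Slco1a4 like Cyp4f15 (0.961), Slco1b2 like Cyp4a14 (0.970) and Slc22a7 like Slc19a2 (0.931). For Slco2b1 they included Ctsc (0.940) and AW112010 (0.930), neither of which was among those of the Slco1 genes. Fabp6 and Slc51b, which were both lower with sgNrf2, correlated at 0.198 over the 10 tumours of the first table and at -0.292 without sgKeap1 tumour 2.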

How the data were processed

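Total RNA of 14 tumour libraries was extracted with a Qiagen kit and prepared with an Illumina TruSeq kit, per the labels. The authors deposited 2 tables of signal values: HTSeq gene counts scaled by DESeq, with Picard and mm10 also named, per the submitters' processing notes; the sources used here do not give the aligner or any version. The deposited values of the first table hold an added 1. With it removed, 100% of values in each library were whole reads to within 0.1 reads, and reads were recovered in both tables; 0 columns were left unused. Of the second table's total per library, 52.4% to 66.8% stood in 4 entries that name no gene, which were left out. This share split by group, at 65.3% to 66.8% for the control libraries but 52.4% to 54.0% for sgNrf2. Most of it was the entry for alignments that were not unique, at 56.8% to 58.0% for control but 45.0% to 46.4% for sgNrf2. The part of this difference in the sgNrf2 results was not tested. Genes averaging 10 or more went into limma 3.58.1 (R 4.3.3), with a pseudocount of 1 before log2, two-sided, with a mean-variance trend and Benjamini-Hochberg adjustment over all genes; sgCul3, sgKeap1 and sgGFP were fitted together, with 1 common spread. edgeR 4.0.16 on recovered reads called 246, 959, 6 and 465 genes and DESeq2 1.42.0 called 926, 2143, 104 and 2651, first for sgCul3 and then for sgKeap1 over sgGFP, then for sgKeap1 over sgCul3 and last for sgNrf2 over control. Of the gene IDs, 16769 and 16048 are in GENCODE M21 on GRCm38, which gave coordinates and exon lengths, and 23 and 24 symbols were restored by ID.

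The members and the 19 gene lists were chosen with earlier results of these data known. By rule, all members are named, with up to 4 called genes a list and comparison (up to 2 where none was called). The rule also names the 3 genes most like each member, Keap1, Cul3 and Nfe2l2, and the choice among these was made with values in view. Promoter motifs, Rasl12, Pcyt1a, Gm15635, Nr1h4, Fabp1, Slco4c1, Apoa4, Cyp2e1, Oat and the uncalled cell type markers were named after values or sequences had been seen. Some genes that the rule names are not reported here. Same-numbered sgCul3 and sgGFP tumours deviated together from their groups (r = 0.221, 0.228 and 0.243, all above 0.1), so the numbers may mark pairs there. The labels do not say what they stand for. All main fits were unpaired, and the tumour number entered only in the alternative with a block. The floor of 3 reads and the intervals are for counting error alone, because no molecular identifiers mark single molecules. The test was checked on simulated counts, in which every gene had the same relative spread beyond counting error and no library stood apart. That check does not cover members whose values turn on single tumours. Alternatives were a pseudocount of 5, no filter, a filter at 50, quantile normalization, equal totals, the added 1 removed, edgeR, DESeq2, the tumour number or letter as a block, the groups compared alone, each library left out and, added after seeing the data, sgKeap1 tumour 2 and sgCul3 tumour 2 left out together.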

Additional observations from a re-analysis of the deposited data

How the results depend on the processing

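Fabp6 kept its direction in every comparison and alternative, and its call in sgKeap1 and sgNrf2. Members called higher in sgKeap1 came to 1 with edgeR (Slco1a1), and in sgNrf2 to 1 with equal totals, DESeq2 or the replicate block (Slc22a7, adjusted p = 0.0413, 4.89e-07 and 0.0187), against 0. With 1 library left out, members called lower ranged from 0 to 1 in sgCul3 (1 without sgKeap1 tumour 2) and from 1 to 2 in sgNrf2 (1 without sgNrf2 A or B), and those called higher in sgNrf2 from 0 to 1 (1 without control A, Slco2b1). The replicate block also called Slco1b2 lower in sgNrf2 (adjusted p = 0.0392), where letters did not pair libraries (r = -0.000641); sgKeap1 numbers correlated at -0.0829 to 0.208 with sgGFP and 0.098 to 0.518 with sgCul3, and the block changed no other member's call. Leaving out a library of the second table leaves 1 in its arm, which is then assumed to vary like the other group. The cause of these changes was not tested.

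Uncalled members turned sign in sgCul3 for Slco1b2 (0.27 with edgeR, 0.27 with DESeq2), Slco2b1 (-0.15) and Slc51b (0.11) with the block, and Slco1a4 (-0.77) and Slco2b1 (-0.16) without both tumours 2; in sgKeap1 against sgGFP Slco1b2 did so without both (-1.26). With 1 library left out, members that turned ranged in sgCul3 from -0.77 to 2.09 (Slco1a4), -0.16 to 0.66 (Slco2b1), -0.47 to 0.11 (Slc51b), -2.90 to 0.58 (Slco1b2) and -0.0021 to 1.09 (Slco1a1); in sgKeap1 against sgGFP from -1.26 to 1.49 (Slco1b2) and -0.25 to 1.005 (Slc51b); and in sgKeap1 against sgCul3 from -0.62 to 0.27 (Slc10a1), -0.076 to 2.84 (Slco1a4), -0.22 to 3.27 (Slco1b2), -0.15 to 1.25 (Slco2b1) and -0.073 to 1.18 (Slc51b).

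Equal totals moved the median of all genes by -0.203 in sgKeap1 against sgGFP, -0.232 against sgCul3 and 0.345 in sgNrf2, without turning a member, and took the higher share of calls in sgNrf2 to 70.7% (1236 genes), against 43.1% (617). Over all genes 287, 1020, 8 and 617 were called in the order of the methods. Counts over 1.5 times apart were 162 with a mean of at least 50, 168 with the groups alone and 926 with DESeq2 in sgCul3; 2143 with DESeq2, 1778 with the block and 365 without both tumours 2 in sgKeap1; 104 with DESeq2, 0 with the groups alone and 2 without both in sgKeap1 against sgCul3; and 972 with quantile normalization and 2651 with DESeq2 in sgNrf2. With 1 library left out they were 65 to 332, 314 to 1502, 0 to 9 and 58 to 3568. Depth limits Slco1a1, Slc51a and, in the first table, Slc22a7.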
